A study of Rattus norvegicus with 19 samples.

Results

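Renal cortex of streptozotocin-diabetic rats fed enarodustat was compared with renal cortex of sham rats that were neither diabetic nor treated. The comparison rests on 12 of the 19 arrays of the study, 7 labelled DKD+enarodustat and 5 labelled Sham, chosen by their labels alone. All rats were male Crl:CD (SD), and total RNA of the cortex of each was hybridised to 1 single-colour Agilent array. Sham rats (n = 5) received vehicle in place of streptozotocin and normal feed. DKD+enarodustat rats (n = 7), called treated below, received 65 mg/kg of streptozotocin into a vein 7 days before the groups were formed and then ate feed with 0.01% (w/w) enarodustat. DKD rats (n = 7) had the same injection with normal feed, and their 7 arrays entered the fit and are set beside the comparison. Kidneys were taken on day 14 after grouping. From 19 injected rats the study drew both diabetic groups so that body weight and blood glucose were matched between them. No group of sham rats with enarodustat is labelled, so a difference between treated and Sham holds both the diabetes and the drug. Each rat was seen on 1 array, so the p-values measure the spread between rats together with that of the arrays and their slides.

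Streptozotocin destroys the insulin-producing beta cells of the pancreas and leaves the animal with high blood glucose, and the proximal tubule takes the filtered glucose back up. Enarodustat blocks prolyl hydroxylase enzymes, which use oxygen to tag the alpha subunit of hypoxia-inducible factor (HIF) for breakdown. HIF then accumulates, pairs with its partner Arnt and acts on genes of glycolysis, glucose uptake, mitochondrial turnover, blood vessel growth and red cell production. The cortex consists mostly of proximal tubule, which lives on fatty acids and makes glucose rather than breaking it down. In RNA from whole cortex, fewer cells of a type and less RNA per cell cannot be told apart.

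HIF binds DNA at a short core, which reads ACGTG or GCGTG. The 250 bases before the annotated start of 5 genes that rose in treated rats are shown, from RefSeq on build GRCr8, read 5′ to 3′ on the gene's strand, because these glycolytic or HIF-linked genes rose and kept their calls when slide row, described below, was in the fit. Capitals mark these 5 letters and, for matches on the other strand, CACGT for the first form and CACGC for the second.
Ldha (chr1:106507842-106508091, plus strand): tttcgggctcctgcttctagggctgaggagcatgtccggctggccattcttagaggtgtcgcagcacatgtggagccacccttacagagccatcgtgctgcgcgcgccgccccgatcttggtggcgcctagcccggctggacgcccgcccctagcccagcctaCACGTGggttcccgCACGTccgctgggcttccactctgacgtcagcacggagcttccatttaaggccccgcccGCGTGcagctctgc
Aldoc (chr10:63715294-63715543, plus strand): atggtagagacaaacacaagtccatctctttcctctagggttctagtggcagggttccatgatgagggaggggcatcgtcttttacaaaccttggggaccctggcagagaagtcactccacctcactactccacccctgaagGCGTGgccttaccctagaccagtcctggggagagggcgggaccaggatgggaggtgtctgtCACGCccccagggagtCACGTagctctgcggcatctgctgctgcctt
Pdk1 (chr3:77113264-77113513, plus strand): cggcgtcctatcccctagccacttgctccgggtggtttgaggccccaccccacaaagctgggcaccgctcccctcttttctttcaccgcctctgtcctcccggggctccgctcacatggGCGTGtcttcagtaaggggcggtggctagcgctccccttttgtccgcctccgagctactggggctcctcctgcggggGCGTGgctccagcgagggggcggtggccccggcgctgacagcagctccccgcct
Bnip3 (chr1:203154963-203155212, minus strand): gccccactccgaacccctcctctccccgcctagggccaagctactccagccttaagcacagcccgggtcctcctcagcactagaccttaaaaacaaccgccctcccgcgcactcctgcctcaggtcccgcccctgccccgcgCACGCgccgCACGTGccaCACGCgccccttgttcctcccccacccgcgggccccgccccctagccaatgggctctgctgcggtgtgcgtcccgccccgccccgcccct
Mgarp (chr2:137590295-137590544, minus strand): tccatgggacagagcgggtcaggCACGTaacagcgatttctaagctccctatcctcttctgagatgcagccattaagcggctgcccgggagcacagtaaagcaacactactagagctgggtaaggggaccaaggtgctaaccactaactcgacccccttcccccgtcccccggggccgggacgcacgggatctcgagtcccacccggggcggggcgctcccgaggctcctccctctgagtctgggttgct
Ldha held 4 matches, of which a pair overlapped on opposite strands and began 87 and 86 bases before the start. Aldoc held 3, Pdk1 2 and Bnip3 4, again with 1 overlapping pair. Mgarp held 1, which began 227 bases before the start. Slc16a3, which also rose, held 0 in this window. Such a match occurred in 6315 of 12384 promoters of genes tested on the arrays (51.0%) and in 37.9% of all 27457 promoters of this length. Among genes of the glycolysis list it occurred in 9 of 15 that rose and have a sequence, and in 4 of 11 that were not called higher. Among the other HIF targets it occurred in 13 of 15 that rose and in 13 of 18 that were not called higher. A match describes letters and is not a binding site.

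Levels below are log2 of the processed signal of 1 probe minus the 75th percentile of its array, so they compare a gene with itself across arrays and not with other genes. A difference is treated minus Sham on this log2 scale, with the standard error of the fit after the ± sign, and a gene rose or fell where the adjusted p was under 0.05 in the fit across all genes. Of 24217 genes, 2429 rose and 3882 fell in treated against Sham cortex, 26.1% in all (10% higher and 16% lower). Each count of a gene list below is to be read against these shares. The groups did not overlap in 14.4% of genes (5.51% higher and 8.87% lower). The median difference over all genes was -0.042 and the median standard error 0.147. Among called genes 610 were at least 2-fold higher and 570 at least 2-fold lower, and 145 and 107 were at least 4-fold higher and lower. The same fit called 17.1% of genes in DKD against Sham and 2.00% in treated against DKD. All 3 comparisons share arrays, so their values are set side by side and not correlated.

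Place on the slide went with group. The 3 slides each held all groups, but all 5 Sham arrays lay in slide row 1 and all 7 treated arrays in slide row 2, while 5 DKD arrays lay in row 1 and DKD arrays 2 and 4 in row 2. Row and group cannot be told apart in the 12 arrays compared. The DKD arrays give the only measure of row: the share of probes above background was 65.4% ± 1.94 (SD, n = 5) on their row 1 arrays and 56.2% ± 2.09 (SD, n = 2) on their row 2 arrays, against 64.3% ± 2.61 (SD, n = 5) for Sham and 58.9% ± 2.87 (SD, n = 7) for treated arrays. With slide row as a term, which those 2 arrays in effect set, 1031 genes were called, 501 higher and 530 lower, and the median standard error grew to 0.255. Of the genes called without the term, 98.6% kept the sign of their difference, and 960 of the calls were shared. The reported fit has no slide term, so its spread also holds differences between slides. On the first principal component (28.7% of the variance) the R2 of slide was 0.964 and that of group 0.0775. With slide as a block 7974 genes were called, at a median standard error of 0.119. With the replicate number as a block, which here also stands for the slide, 7138 genes were called. Without a filter on dim probes, 10744 of 36155 genes were called and the split turned to 64.4% higher, with the median over all genes at 0.104. Of the 144 genes named here that were called, 75 were also called with slide row, and the counts of each list with that term are given beside it. Normexp background correction with an offset of 50 units of signal, followed by quantile normalisation, gave a difference over 1.5 times smaller for 35 of those 144 genes, of which 13 were well above background on all 12 arrays.

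**Figure D1:**
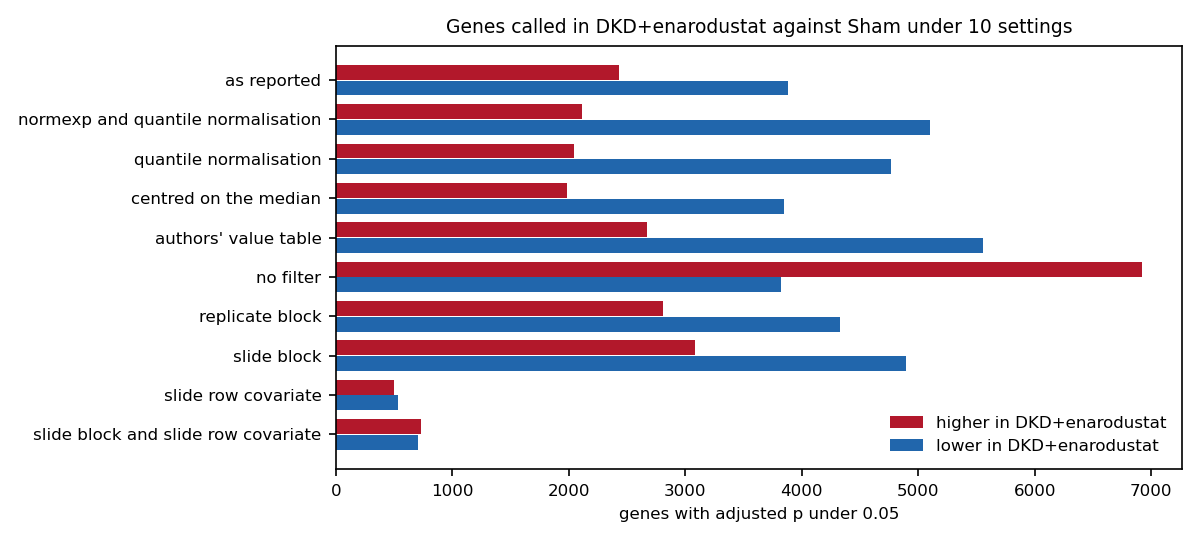
Bars give the number of genes called higher (red) and lower (blue) in treated against Sham cortex on the x axis, at an adjusted p under 0.05, for the fit as reported and 9 other settings named on the y axis. The count falls from 2429 higher and 3882 lower to 501 and 530 with slide row as a covariate.

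The tissue carried its label. All 12 proximal tubule markers were above background on every one of the 12 arrays, with a log2 summed signal of 9.09 to 9.23 in Sham and 8.19 to 8.51 in treated arrays. Of these markers 8 fell and 1 rose, against 1 and 1 with slide row in the fit. Kap, an androgen-dependent protein of the proximal tubule, stood apart at -4.66, while the others that fell did so by less, as in Gatm (-0.93 ± 0.20, adjusted p = 0.00181), which makes the creatine precursor, and Miox (-0.69 ± 0.13, adjusted p = 9.41e-04), which breaks down myo-inositol. Gatm and Miox lost their calls with slide row (-1.16, adjusted p = 0.0676, and -0.35, adjusted p = 0.444). Kap is part of the summed signal and of the mean difference of the 12 markers (-0.66), whose median was -0.42. Cubn, the cubilin receptor of protein reabsorption, was the marker that rose (0.63 ± 0.081, adjusted p = 2.31e-05), and it kept its call with slide row (0.96). Podocyte markers numbered 18, of which 5 fell and none rose (limma, adjusted p under 0.05, with 0 higher at an unadjusted p under 0.05), and 1 was lower with slide row. The share of podocyte markers called was 27.8%, near the 26.1% of all genes. Endothelial markers had a median difference of 0.094, with 1 of 19 lower, and 0 higher and 0 lower with slide row (limma; 0 higher and 0 lower at an unadjusted p under 0.05).

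RNA of cells that cortex holds in small amount, or that lie outside it, differed as well. Adipocyte markers had a median difference of 1.45 over 12 genes, of which 4 rose (33.3%, against 10% of all genes). With slide row none was called (limma; 2 higher and 1 lower at an unadjusted p under 0.05) and the median turned to -0.42. The log2 of their summed signal was 3.89 to 4.52 in Sham, 5.01 to 5.97 in DKD and 4.74 to 5.72 in treated arrays, and Plin1, the lipid droplet coat protein, was not above background on enough arrays to be tested. The 4 that rose were Cidea, Fabp4, Lep and Pck1. Pck1 is also the gluconeogenesis gene described below, so its level and its part of the sum need not come from fat cells. Fabp4, a fatty acid carrier of fat cells, stood at -4.49, -4.04, -6.28, -6.48 and -5.58 in the 5 Sham arrays and at -3.53 to -0.15 (median -2.99) in the treated arrays. The groups did not overlap in Fabp4 (3.05 ± 0.91, adjusted p = 0.0191), but leaving out Sham array 3 or 4 ended the call (adjusted p = 0.0521 and 0.0533), as did normexp with quantile normalisation (adjusted p = 0.0890). In DKD arrays Fabp4 was 3.87 higher in row 2 than in row 1, and the adipocyte markers as a list 1.13 higher, and with slide row in the fit the Fabp4 difference turned to -0.82 (adjusted p = 0.776). Macrophage markers rose in 6 of 10 (median 0.77; log2 summed signal 4.60 to 4.87 in Sham and 5.00 to 6.12 in treated), and were 0.55 higher in the row 2 DKD arrays. No macrophage marker was called with slide row (limma; 0 higher and 0 lower at an unadjusted p under 0.05), and the median was 0.16. Hepatocyte-type genes rose in 6 of 9 tested, and in 2 with slide row. Of 10 skeletal muscle markers none was called in either direction (limma; 0 higher and 0 lower at an unadjusted p under 0.05), and 4 of 10 markers of inner medulla and papilla rose, 2 with slide row. The part of these cells in the results below was not tested.

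Genes of glycolysis rose more often than they fell. Of 30 genes 16 rose and 2 fell, against 10% and 16% of all genes, and the median difference was 0.46 against -0.042. The median of these genes was 0.0092 in DKD against Sham and 0.34 in treated against DKD. Ldha, which turns pyruvate to lactate, stood at 4.22, 4.68, 4.26, 4.30 and 4.40 in the 5 Sham arrays, at 4.72 to 5.13 (median 5.02) in the 7 DKD arrays and at 5.98 to 6.34 (median 6.13) in the 7 treated arrays. Each treated array was above each DKD array, and each DKD array above each Sham array. The Ldha difference was 1.76 ± 0.091 (adjusted p = 1.10e-09), a 3.4-fold rise, and 1.62 (adjusted p = 2.67e-05) with slide row in the fit.

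Aldoc, an aldolase that splits fructose bisphosphate, stood at -3.46, -3.92, -3.62, -3.47 and -3.51 in Sham and at -1.45 to -0.80 (median -1.18) in treated arrays, a difference of 2.45 ± 0.14 (adjusted p = 4.66e-09), of which 0.91 was present in DKD against Sham. Pfkl, the liver-type phosphofructokinase at the committed step, stood at -2.0, -2.24, -2.55, -2.44 and -2.33 in Sham and at -1.35 to -0.83 (median -1.08) in treated arrays. It rose by 1.22 ± 0.12 (adjusted p = 9.82e-07), with DKD against Sham at 0.20 (adjusted p = 0.279). Pkm, the muscle-type pyruvate kinase, rose by 0.65 ± 0.066 (adjusted p = 1.86e-06). Slc16a3, the monocarboxylate transporter that exports lactate, stood at -1.93, -2.66, -1.85, -1.49 and -2.52 in Sham, at -3.05 to -1.85 (median -2.46) in DKD and at -0.51 to 0.21 (median 0.0075) in treated arrays. Sham and DKD overlapped in Slc16a3 while all treated arrays lay above both, with a rise of 2.04 ± 0.24 (adjusted p = 8.69e-06) against Sham and 2.32 against DKD. Slc2a1, the glucose carrier GLUT1, differed by 0.40 ± 0.13 (adjusted p = 0.0343), a call that ended when Sham array 1, 2 or 5 or treated array 3 or 4 was left out (adjusted p of up to 0.100, without Sham array 5) or when arrays were centred on the median (adjusted p = 0.0885), and with slide row in the fit (adjusted p = 0.412). 9 glycolysis genes were called higher with slide row in the fit, Aldoc (2.08), Pfkl (1.40), Pkm (0.74) and Slc16a3 (1.91) among them, and none lower (limma; 12 higher and 2 lower at an unadjusted p under 0.05).

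**Figure D2:**
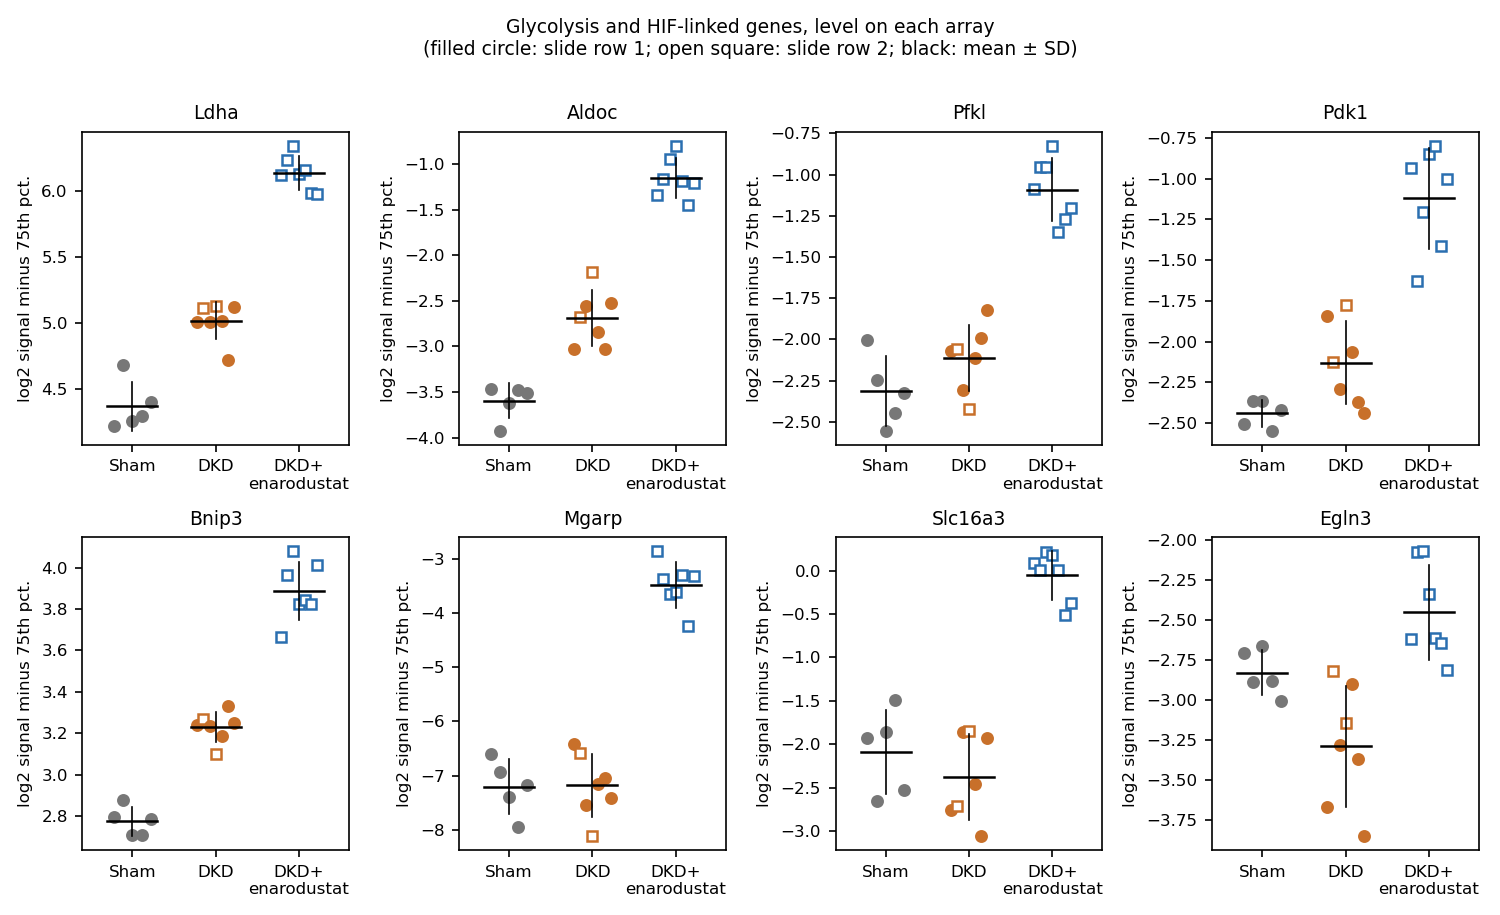
Points are arrays, with the log2 level of 8 genes on the y axes and the 3 groups on the x axes; circles are slide row 1, open squares slide row 2, and the black lines the group mean ± SD. Treated arrays lie above all Sham arrays in every panel but Egln3, and the 2 DKD arrays of row 2 lie with the other DKD arrays rather than with the treated arrays in Ldha, Mgarp and Slc16a3.

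Other genes with a known HIF response rose in 19 of 40 tested and fell in 4, with a median difference of 0.30. Their median was -0.026 in DKD against Sham and 0.30 in treated against DKD. Mgarp, a mitochondrial protein that moves mitochondria under hypoxia, was among the genes that were higher in treated rats than in both other groups. It stood at -6.59, -6.93, -7.39, -7.94 and -7.18 in Sham, at -8.11 to -6.42 (median -7.16) in DKD and at -4.24 to -2.86 (median -3.37) in treated arrays. Its rise was 3.73 ± 0.29 (adjusted p = 9.79e-08), against 0.028 in DKD against Sham, and Mgarp was well above background on 4 of 5 Sham, 3 of 7 DKD and 7 of 7 treated arrays. Normexp with quantile normalisation gave a smaller Mgarp difference of 1.24. The probe lies at chr2:140282421-140282480 on rn4.

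Bnip3, a receptor that marks mitochondria for removal, stood at 2.79, 2.88, 2.71, 2.71 and 2.79 in Sham and at 3.66 to 4.08 (median 3.85) in treated arrays (1.11 ± 0.068, adjusted p = 6.72e-09), with DKD in between at 3.10 to 3.33 (median 3.24). Pdk1, the kinase that shuts pyruvate dehydrogenase, stood at -2.51, -2.37, -2.36, -2.55 and -2.42 in Sham and at -1.63 to -0.80 (median -1.0) in treated arrays. Pdk1 rose by 1.32 ± 0.14 (adjusted p = 4.00e-06) without overlap. Gys1, the muscle-type glycogen synthase, rose by 0.77 ± 0.076 (adjusted p = 1.41e-06), and Lox, which crosslinks collagen, by 1.91 ± 0.18 (adjusted p = 8.11e-07). For Gys1 the DKD difference from Sham was 0.20, while for Lox it was already 1.68, and normexp with quantile normalisation gave 1.26 for Lox against Sham. Angptl4, a lipase inhibitor that both HIF and PPAR-alpha act on, stood at -3.75, -2.23, -3.41, -2.38 and -3.16 in Sham and at 0.54 to 1.56 (median 1.08) in treated arrays, a rise of 4.08 ± 0.32 (adjusted p = 1.37e-07), of which 3.63 was present in DKD. Bnip3, Pdk1, Gys1, Lox, Angptl4 and Mgarp were each called with slide row in the fit (1.18, 1.07, 0.78, 1.97, 2.87 and 3.96), where 12 targets were called higher and none lower (limma; 15 higher and 1 lower at an unadjusted p under 0.05).

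Vegfa, Egln3 and Tfrc, widely used readouts of HIF, differed by less than 1 log2 unit. Vegfa, the endothelial growth factor, stood at 1.85, 2.15, 1.93, 1.83 and 1.70 in Sham and at 1.90 to 2.52 (median 2.24) in treated arrays, which overlapped. Its rise of 0.35 ± 0.11 (adjusted p = 0.0231) lost the call when Sham array 1, 4 or 5 was left out (adjusted p = 0.0506, 0.0531 and 0.0669), with slide row in the fit (adjusted p = 0.555), and under 4 other scalings or probe choices (adjusted p of up to 0.108, with quantile normalisation). Egln3, the prolyl hydroxylase PHD3 that HIF itself raises, differed by 0.38 ± 0.17 and was not called (adjusted p = 0.121), with treated arrays at -2.81 to -2.07 (median -2.61) and Sham at -2.71, -2.89, -2.66, -2.88 and -3.0. Against DKD, where Egln3 was lower (-0.46 against Sham, adjusted p = 0.0761), it rose by 0.84 (adjusted p = 0.00667). With the replicate block Egln3 was called against Sham too (0.49, adjusted p = 0.0198), as it was in the authors' value table (adjusted p = 0.00598). These were the only 2 of 28 settings that called it. With slide row in the fit the Egln3 difference was -0.057 (adjusted p = 0.94). Tfrc, the transferrin receptor that brings in iron, differed by 0.87 ± 0.30 (adjusted p = 0.0379); the call ended when any of Sham arrays 1, 2, 3 and 5 or treated arrays 1 to 4 was left out (adjusted p of up to 0.0880), and with slide row in the fit (adjusted p = 0.335). Epo, the red cell hormone, passed background on a single array and could not be tested.

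Of 14 components of the HIF machinery 2 rose and 3 fell, with a median of -0.0088. The share called was 35.7%, against 26.1% of all genes. Hif1a differed (-0.25 ± 0.081, adjusted p = 0.0275), a call that ended without Sham array 2, 3 or 5 or treated array 1 or 3 (adjusted p of up to 0.0693) or when the probes of a gene were averaged (adjusted p = 0.161). Epas1, which encodes HIF-2 alpha, differed by 0.15 ± 0.077 (adjusted p = 0.167) and was not called. Hif1an, the asparagine hydroxylase that also restrains HIF, fell (-0.51 ± 0.12, adjusted p = 0.00532), and Arnt2 rose by 0.70 ± 0.11 (adjusted p = 1.86e-04), while its other probe differed by 0.064. Hif1an was at -0.12 with normexp and quantile normalisation. No component was called in either direction with slide row in the fit (limma; 1 higher and 0 lower at an unadjusted p under 0.05).

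Genes that carry pyruvate into the mitochondrion and burn it there fell more often than they rose, as did all genes (16% lower and 10% higher). The share called was 57.1% in the pyruvate dehydrogenase list and 38.5% in the TCA cycle, against 26.1% of all genes. Of the 14 genes of the pyruvate dehydrogenase complex, its regulators and the pyruvate carrier, 6 fell and 2 rose, and both that rose are kinases that shut the complex, Pdk1 and Pdk4. Pdk4 stood at -8.63, -7.94, -7.29, -8.32 and -8.01 in Sham, where it was well above background on 1 of 5 arrays, and at -5.41 to -4.26 (median -4.46) in treated arrays (3.29 ± 0.25, adjusted p = 1.04e-07; 2.78 in DKD against Sham). The size of the Pdk4 rise is uncertain, as normexp with quantile normalisation gave 0.65. Mpc1, a subunit of the pyruvate carrier, fell (-0.58 ± 0.075, adjusted p = 2.31e-05), and Pdp2, a phosphatase that opens the complex (-0.95 ± 0.14, adjusted p = 1.07e-04). Calls in this list were 2 higher and 0 lower with slide row (limma; 2 higher and 4 lower at an unadjusted p under 0.05). In the TCA cycle 9 of 26 genes fell and 1 rose, against 0 higher and 1 lower with slide row (limma; 3 higher and 4 lower at an unadjusted p under 0.05). This list also holds the cytosolic enzymes Me1 and Aco1, and Aco1 was the 1 that rose. Me1 was the 1 called lower with slide row, so no other gene of the list kept a call there. Idh3a (-0.47 ± 0.077, adjusted p = 2.36e-04) and Suclg2 (-0.37 ± 0.069, adjusted p = 7.74e-04), subunits of isocitrate dehydrogenase and succinyl-CoA ligase, and Me1, the cytosolic malic enzyme (-0.85 ± 0.13, adjusted p = 1.57e-04), fell, while Aco1 (0.74 ± 0.13, adjusted p = 4.59e-04), whose protein is also an iron sensor, rose.

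Of 69 genes of oxidative phosphorylation 19 fell and 1 rose, with a median of -0.13 against -0.042 over all genes. The share called in either direction was 29%, near the 26.1% of all genes, while 16% of all genes fell. Cycs, cytochrome c, fell (-1.02 ± 0.22, adjusted p = 0.00238), Uqcrc2 of complex III (-0.40 ± 0.058, adjusted p = 6.97e-05), Ndufv3 of complex I (-0.42 ± 0.088, adjusted p = 0.00181) and Atp5f1b of ATP synthase, named Atp5b in the files (-0.36 ± 0.078, adjusted p = 0.00245). The other Ndufv3 probe differed by -0.068. Uqcrc2 was lower against DKD as well (-0.31, adjusted p = 0.00289). The count depended on the scaling: normexp background correction with quantile normalisation called 56 members lower, the authors' own values 58, the fit without Sham array 4 12, and slide row in the fit none (limma; 0 higher and 4 lower at an unadjusted p under 0.05). The median was -0.26, -0.23 and -0.048 under the first, second and last of these. With slide row in the fit Pdk1 and Pdk4 were still called higher, Me1 was called lower (-0.99, adjusted p = 0.0243), and Mpc1, Pdp2, Idh3a, Suclg2, Aco1, Cycs, Uqcrc2, Ndufv3 and Atp5f1b kept their direction and lost the call.

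Genes of fatty acid oxidation and other PPAR-alpha targets rose more often than they fell. PPAR-alpha is the nuclear receptor that fatty acids activate. Of 58 tested 28 rose and 4 fell, and their median difference was 0.36; the median was 0.39 in DKD against Sham and -0.028 in treated against DKD. Creb3l3, a liver-type transcription factor of the fasting state, stood at -9.51, -6.11, -8.02, -8.23 and -7.48 in Sham, with 1 of 5 arrays well above background, and at -3.97 to -2.86 (median -3.44) in treated arrays. Its difference was 4.41 ± 0.42 (adjusted p = 9.99e-07), of uncertain size, as normexp with quantile normalisation gave 1.19. Vnn1, a pantetheinase, rose by 2.52 ± 0.29 (adjusted p = 7.42e-06). Cpt1a, which lets long-chain fatty acids into the mitochondrion, differed by 0.56 ± 0.21 (adjusted p = 0.0584) and was not called, although it was without Sham array 2 (0.70, adjusted p = 0.0240) or without treated array 1 or 2 (adjusted p = 0.0460 and 0.0395), with the replicate block (adjusted p = 0.0456) and in the authors' value table (adjusted p = 0.0195). Cpt1a was not called with slide row in the fit (0.46, adjusted p = 0.587). Sham array 2 was the highest of its group in Creb3l3 and Angptl4. In the fit with slide row 7 of these genes were called higher and none lower (limma; 16 higher and 2 lower at an unadjusted p under 0.05), among them Creb3l3 (3.64), Vnn1 (2.48) and Pdk4 (2.91).

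Oxct1, Bdh1 and Acat1, enzymes of ketone body metabolism, fell. Of 13 genes of this list 3 rose and 4 fell, against 1 higher and 2 lower with slide row. The list as a whole did not fall: its median was 0.26, and 0.39 in DKD against Sham. At an unadjusted p under 0.05 (limma) 6 genes were higher and 6 lower. Oxct1, which activates ketone bodies for burning, stood at 4.52, 4.14, 4.41, 4.38 and 4.46 in Sham and at 3.36 to 3.56 (median 3.43) in treated arrays and fell (-0.94 ± 0.084, adjusted p = 5.23e-07). Bdh1, which interconverts the ketone bodies, fell (-0.99 ± 0.19, adjusted p = 0.00106) and Acat1, the thiolase (-0.49 ± 0.094, adjusted p = 9.17e-04). DKD against Sham gave -0.81 for Oxct1 and -0.77 for Bdh1. Oxct1 (-0.68, adjusted p = 0.00650) kept its call with slide row in the fit, while Bdh1 and Acat1 did not.

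Genes of glucose release and sugar transport moved in both directions. Pck1, which sets the pace of gluconeogenesis, rose by 1.04 ± 0.17 (adjusted p = 2.43e-04), and Fbp2, a fructose bisphosphatase, by 2.19 ± 0.15 (adjusted p = 4.24e-08). Slc2a2, the basolateral glucose carrier GLUT2, stood at 0.97, 0.87, 1.1, 1.36 and 1.42 in Sham and at 2.01 to 2.7 (median 2.42) in treated arrays and rose by 1.21 ± 0.15 (adjusted p = 1.74e-05). Slc2a5, the fructose carrier, fell (-1.11 ± 0.18, adjusted p = 1.88e-04), and Slc37a4, which brings glucose 6-phosphate to its phosphatase (-0.60 ± 0.090, adjusted p = 1.01e-04). Slc5a2, the luminal carrier SGLT2, fell (-0.42 ± 0.14, adjusted p = 0.0295); the call ended without Sham array 4 or 5 or treated array 2 or 4 (adjusted p of up to 0.0771), and with slide row in the fit the difference was -0.053 (adjusted p = 0.927). Txnip, a thioredoxin-binding protein that glucose induces, stood at 1.16, 1.18, 0.69, 1.17 and 1.26 in Sham and at 2.20 to 2.85 (median 2.75) in treated arrays. It rose by 1.52 ± 0.13 (adjusted p = 3.24e-07), and DKD against Sham was 1.40. Of 16 genes of gluconeogenesis and fructose use 4 rose and 4 fell, against 2 higher and 0 lower with slide row (limma; 4 higher and 4 lower at an unadjusted p under 0.05). Of 22 genes of glycogen metabolism 5 rose and 4 fell, against 1 higher and 1 lower with slide row. Stbd1, which tethers glycogen to membranes, rose by 0.84 ± 0.14 (adjusted p = 2.81e-04) and Phkb, a subunit of phosphorylase kinase, fell (-0.55 ± 0.088, adjusted p = 2.01e-04). Ppp1r3c, which brings a phosphatase to glycogen, differed by 0.84 ± 0.14 on its brighter probe and by -0.46 on the other, so its direction is uncertain. With slide row in the fit Fbp2 (2.25), Slc2a2 (1.62), Txnip (1.56) and Phkb (-0.76) kept their calls, and Pck1, Slc2a5, Slc37a4, Stbd1 and Ppp1r3c kept only their direction.

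Genes of lipid synthesis fell more often than they rose, as did all genes (16% lower and 10% higher). The share called was 54.2% in cholesterol synthesis and 64.3% in fatty acid synthesis, against 26.1% of all genes. In cholesterol synthesis 11 of 24 tested fell and 2 rose, at a median of -0.31. Hmgcs1, which makes the precursor of mevalonate, fell (-0.42 ± 0.086, adjusted p = 0.00164), Msmo1, a sterol oxidase (-0.48 ± 0.067, adjusted p = 5.39e-05) and Nsdhl, a sterol dehydrogenase (-0.43 ± 0.080, adjusted p = 7.04e-04). Tm7sf2, a sterol reductase, went the other way (0.89 ± 0.12, adjusted p = 4.28e-05). In fatty acid synthesis 13 of 28 genes fell and 5 rose. Scd2, a delta-9 desaturase, fell (-1.38 ± 0.17, adjusted p = 1.17e-05) and Fads2, the delta-6 desaturase (-0.92 ± 0.083, adjusted p = 5.25e-07), while Elovl6, an elongase, rose by 1.14 ± 0.14 (adjusted p = 1.03e-05) and Lpin2, a phosphatidate phosphatase, by 1.01 ± 0.14 (adjusted p = 6.51e-05). Fads2 fell against DKD too (-0.58, adjusted p = 3.68e-04). When slide row was in the fit 2 cholesterol genes and 5 fatty acid genes were called lower and 1 of each list higher, and Nsdhl and Lpin2 lost their calls.

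Amino acid metabolism fell in 27 of 76 genes and rose in 6, with a median of -0.19. Mtr, methionine synthase, fell (-0.84 ± 0.089, adjusted p = 3.14e-06), while Bhmt, the other enzyme that remakes methionine, from betaine, rose by 1.81 ± 0.22 (adjusted p = 1.09e-05). Afmid (-1.01 ± 0.12, adjusted p = 1.07e-05) and Kynu (-0.56 ± 0.083, adjusted p = 8.84e-05), which act in turn on the breakdown of tryptophan, fell. The median of these genes in DKD arrays of row 2 minus row 1 was -0.19, and with slide row in the fit 2 were called lower and 2 higher, Bhmt (1.51), Afmid (-1.07) and Mtr (-0.76) among them. Kynu lost its call (adjusted p = 0.153), and Mtr was at -0.46 with normexp and quantile normalisation.

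**Figure D3:**
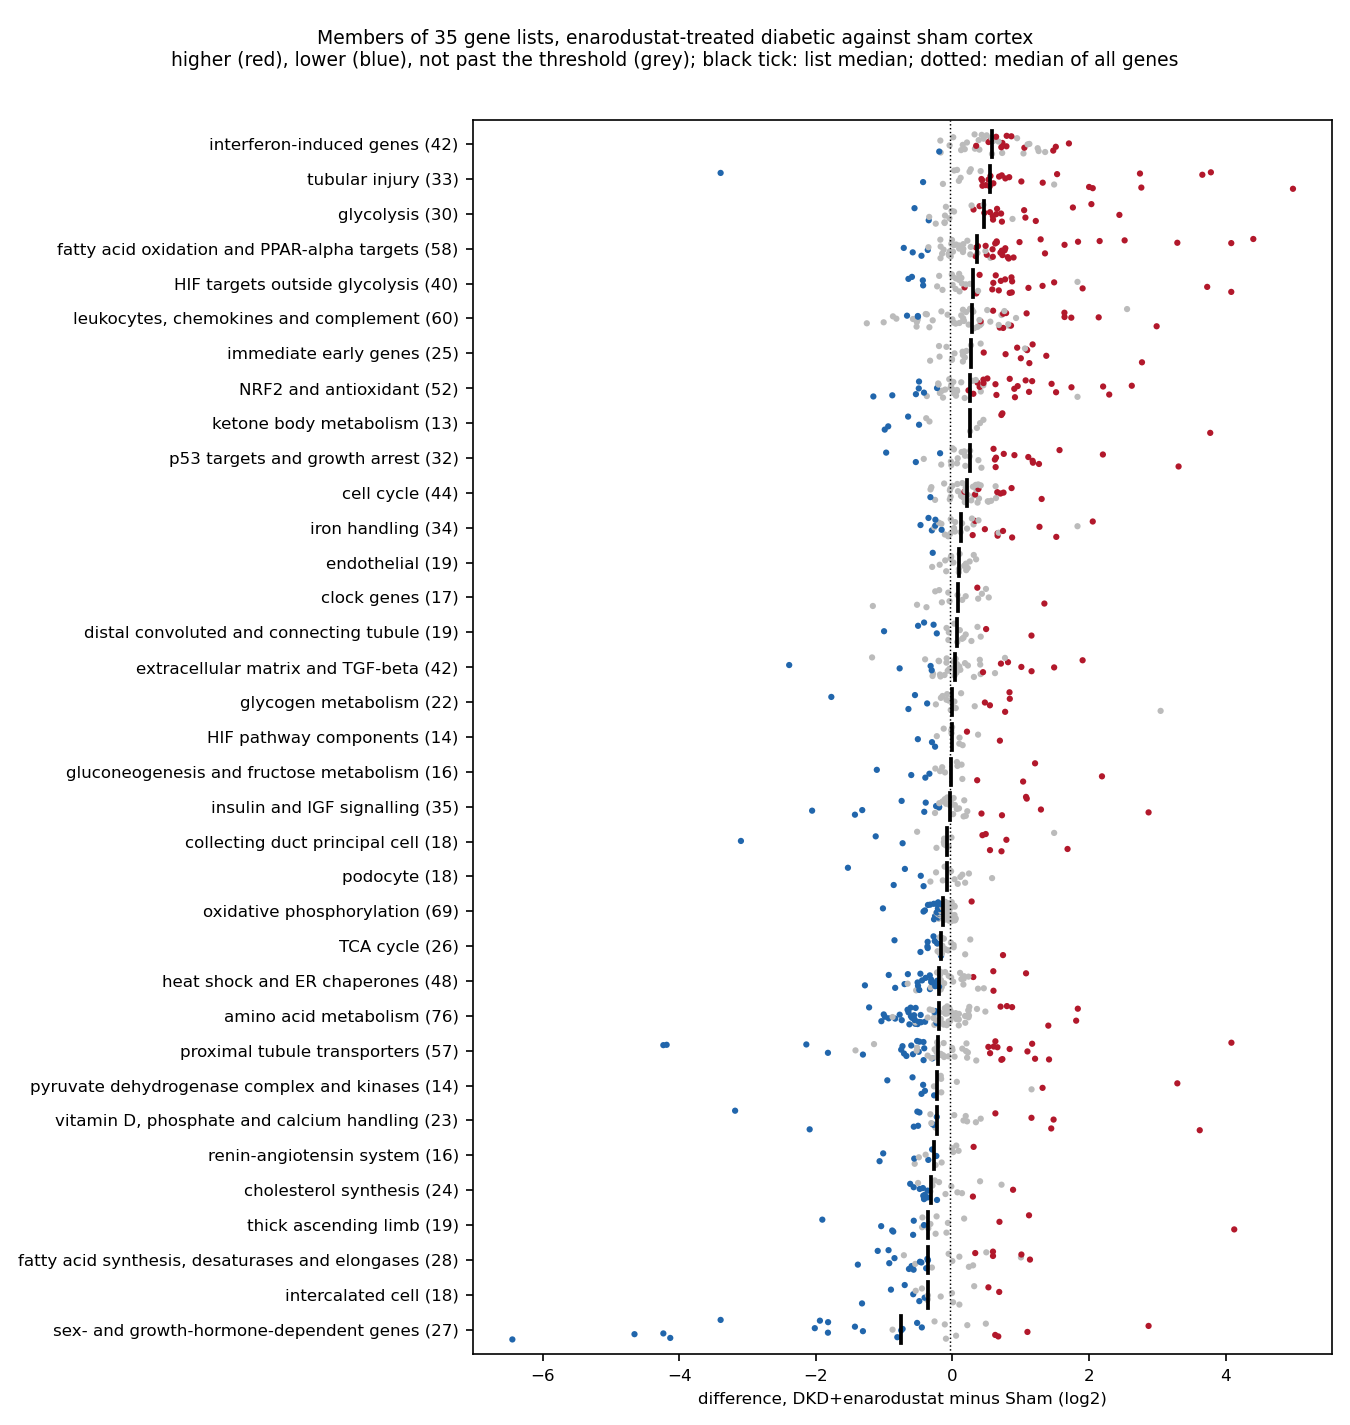
Each point is 1 gene, placed on the x axis by its log2 difference, treated minus Sham; rows on the y axis are 35 gene lists with the number of genes tested in brackets, ordered by the list median. Red and blue mark genes called higher and lower, black ticks the list medians, which run from -0.75 in the sex- and growth-hormone-dependent genes to 0.57 in interferon-induced genes, and the dotted line the median of all genes at -0.042.

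Some of the largest falls lay in a list of sex- and growth-hormone-dependent genes, whose direction of dependence was not set. Of the 27 genes of this list 16 fell and 4 rose (7 and 1 with slide row), at a median of -0.75. The median was -0.64 in DKD against Sham and -0.0079 in treated against DKD. Cyp2c11, a male-specific cytochrome P450 with a probe at chr1:243320626-243320685 on rn4, stood at -0.66, 1.06, -0.38, -0.60 and -0.18 in Sham and at -7.55 to -6.04 (median -6.21) in treated arrays, with 4 of 7 treated arrays well above background. It fell (-6.44 ± 0.34, adjusted p = 1.24e-09), and normexp with quantile normalisation gave -3.92. Slco1a1, an organic anion carrier of the brush border, stood at 1.33, 1.55, 1.25, 1.23 and 1.03 in Sham and at -4.28 to -1.39 (median -3.01) in treated arrays. Kap stood at 7.29, 7.25, 7.43, 7.50 and 7.30 in Sham and at 1.86 to 4.09 (median 2.40) in treated arrays. In Slco1a1 (-4.23 ± 0.56, adjusted p = 3.18e-05) and Kap (-4.66 ± 0.52, adjusted p = 5.52e-06) the 5 Sham arrays lay close together and the treated arrays were spread over more than 2 log2 units, without overlap. Esr1, the oestrogen receptor alpha, fell (-1.82 ± 0.17, adjusted p = 6.35e-07). Igfbp1, an IGF-binding protein that rises when insulin is lacking, had the largest rise in this list, of 2.87 ± 0.26 (adjusted p = 6.50e-07). Cyp2c11, Slco1a1, Kap, Esr1 and Igfbp1 kept their calls with slide row in the fit (-6.01, -4.16, -5.14, -1.45 and 3.39).

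**Figure D4:**
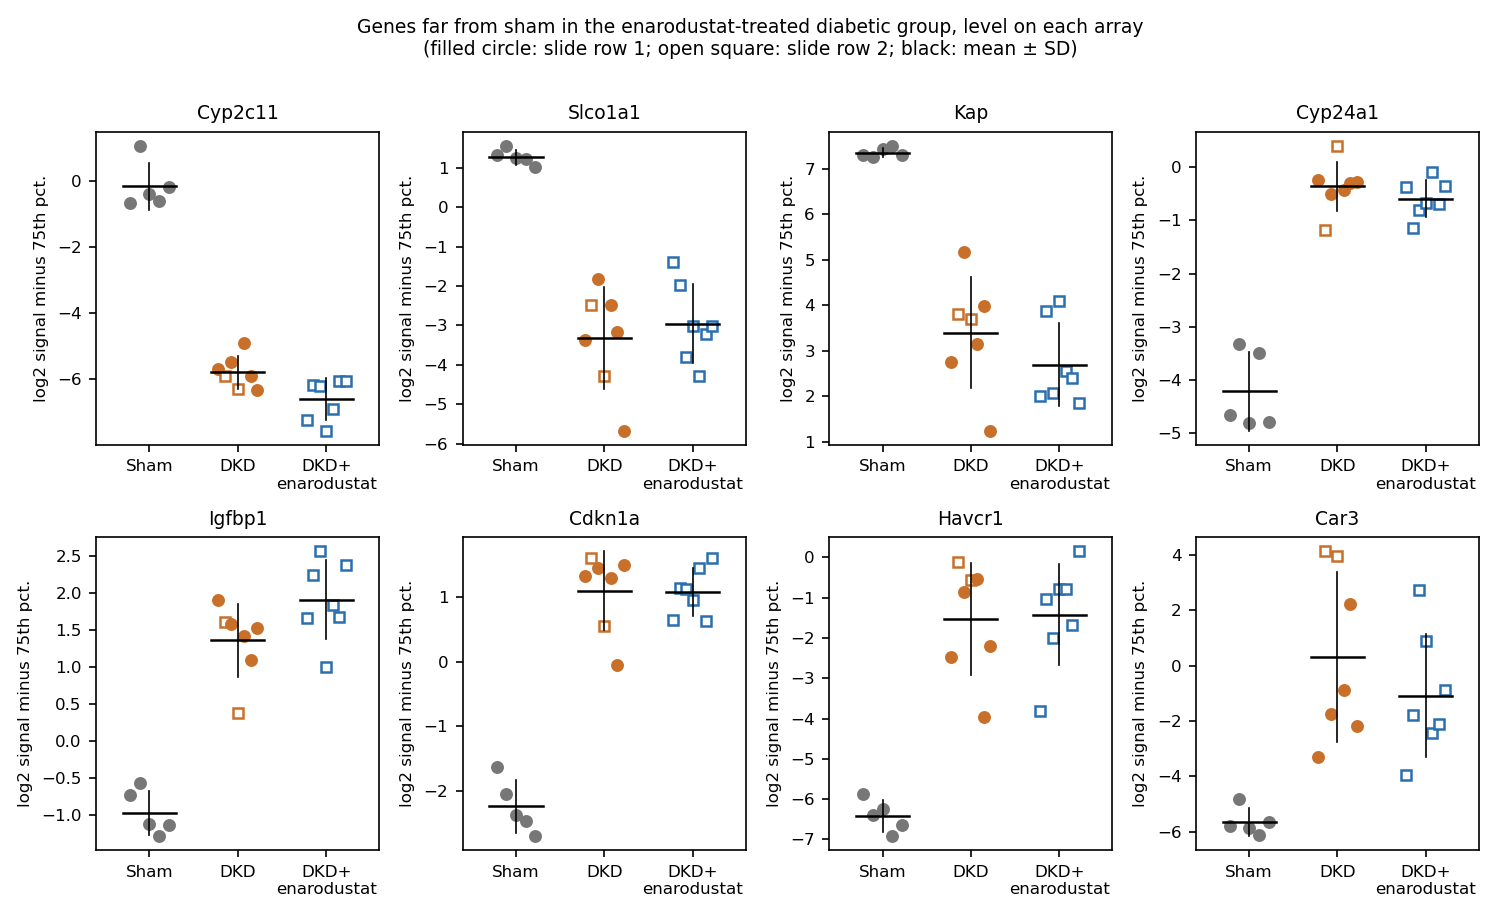
Points are arrays, with the log2 level of 8 genes on the y axes and the 3 groups on the x axes; circles are slide row 1, open squares slide row 2, and the black lines the group mean ± SD. Sham arrays lie apart from both diabetic groups in each panel, and the 2 DKD arrays of row 2 are the highest 2 of all arrays in Car3, at 4.13 and 3.97.

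Transporters of the proximal tubule rose in 13 and fell in 18 of 57. Abcb1b, an efflux pump of the P-glycoprotein family, stood at -4.59, -3.92, -3.02, -3.56 and -2.52 in Sham and at -0.075 to 0.98 (median 0.74) in treated arrays (4.09 ± 0.36, adjusted p = 3.85e-07). Slc22a2, an organic cation carrier, fell (-1.82 ± 0.22, adjusted p = 1.33e-05). Slco1a4, which the files call Slco1a2, fell (-4.19 ± 0.59, adjusted p = 5.91e-05) on the brighter probe, against -0.60 on the other, and its family members share sequence, so its size is uncertain. Abcb1b, Slc22a2 and Slco1a4 were called with slide row in the fit (3.91, -1.67 and -4.18), in which 6 transporters were called higher and 3 lower.

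In the thick ascending limb 7 of 19 genes fell and 3 rose, against 1 and 2 with slide row. Cldn14, a claudin that blocks calcium uptake between cells, stood at -7.26, -6.29, -6.64, -5.59 and -6.01 in Sham, with 4 of 5 arrays well above background, and at -3.40 to -1.12 (median -2.43) in treated arrays (4.13 ± 0.44, adjusted p = 2.87e-06; 1.96 with normexp and quantile normalisation). Cldn10, the claudin of the sodium path, fell (-0.88 ± 0.12, adjusted p = 3.22e-05), Egf, the growth factor made there (-0.87 ± 0.12, adjusted p = 4.36e-05) and Umod, the most abundant urinary protein (-0.58 ± 0.17, adjusted p = 0.0158). Foxq1, a transcription factor, rose by 1.12 ± 0.18 (adjusted p = 1.49e-04). In the distal convoluted and connecting tubule Klk1, named Klk1c7 in the files and one of a kallikrein family with close sequences, fell (-1.0 ± 0.14, adjusted p = 6.97e-05) and S100g, the calcium carrier calbindin-D9k, rose by 1.16 ± 0.17 (adjusted p = 1.07e-04), with 2 higher and 5 lower of 19 and 0 higher and 1 lower with slide row (limma; 2 higher and 4 lower at an unadjusted p under 0.05). In principal cells of the collecting duct 6 of 18 genes rose and 3 fell, against 2 higher and 2 lower with slide row. The water channels Aqp2 (0.72 ± 0.083, adjusted p = 7.50e-06) and Aqp4 (1.69 ± 0.21, adjusted p = 1.29e-05) rose, and Kcne1, a potassium channel subunit, fell (-3.10 ± 0.30, adjusted p = 1.03e-06). Kcne1 was at -1.89 with normexp and quantile normalisation. Markers of intercalated cells fell in 6 of 18, led by Slc26a4, the chloride and bicarbonate exchanger pendrin (-1.32 ± 0.18, adjusted p = 3.32e-05), and rose in 2. Their share called was 44.4%, against 26.1% of all genes. None of the intercalated cell markers was called in either direction with slide row (limma; 2 higher and 2 lower at an unadjusted p under 0.05). Among podocyte genes Col4a4, a chain of the glomerular basement membrane, fell (-1.53 ± 0.14, adjusted p = 9.27e-07). Cldn14, Egf, Foxq1, Klk1, Aqp2, Aqp4, Kcne1 and Col4a4 were called with slide row in the fit, while Cldn10, Umod, S100g and Slc26a4 were not (adjusted p = 0.131, 0.449, 0.0761 and 0.0814 in that order).

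The enzymes that make and break active vitamin D moved in opposite directions. Cyp24a1, which inactivates the hormone, stood at -4.66, -3.33, -4.80, -3.50 and -4.79 in Sham and at -1.15 to -0.088 (median -0.67) in treated arrays, a rise of 3.62 ± 0.29 (adjusted p = 1.55e-07) (12.3-fold). Cyp27b1, which makes it, stood at -2.91, -2.38, -3.37, -2.59 and -3.29 in Sham and at -5.69 to -4.60 (median -4.75) in treated arrays and fell (-2.09 ± 0.24, adjusted p = 6.24e-06). Normexp with quantile normalisation gave -1.08 for Cyp27b1. Both had separate groups, kept their calls with slide row in the fit (3.67 and -1.97) and had DKD minus Sham differences of 3.85 and -1.96. Vdr, the vitamin D receptor, rose by 1.45 ± 0.21 (adjusted p = 7.96e-05), and Kl, the phosphate hormone co-receptor klotho, fell (-0.50 ± 0.088, adjusted p = 4.10e-04); both lost the call with slide row. Over 23 genes of vitamin D, phosphate and calcium 5 rose and 9 fell, against 2 higher and 1 lower with slide row. In the renin-angiotensin system 6 of 16 genes fell and 1 rose, with Anpep, a peptidase that cuts angiotensins (-1.01 ± 0.20, adjusted p = 9.41e-04), and the receptor Agtr1a (-0.35 ± 0.075, adjusted p = 0.00209) among those that fell. The other Anpep probe differed by -0.056, so its size is uncertain. The share of renin-angiotensin genes called was 43.8%, against 26.1% of all genes. No gene of this list was called with slide row in the fit (limma; 1 higher and 4 lower at an unadjusted p under 0.05).

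Injury genes of the tubule rose in 22 of 33 and fell in 2, with a median of 0.56. Havcr1, kidney injury molecule 1, was among the 12 largest rises. It stood at -5.87, -6.39, -6.26, -6.91 and -6.64 in Sham and at -3.80 to 0.15 (median -1.04) in treated arrays, with all treated arrays above all Sham arrays (4.99 ± 0.65, adjusted p = 2.65e-05; probe at chr10:31857202-31857261 on rn4). Havcr1 differed by less under normexp with quantile normalisation (2.59) and in the values the authors deposited (2.33), where Angptl4 exceeded it (3.54 and 3.22). Lcn2, the lipocalin NGAL, stood at -3.70, -3.74, -4.16, -3.96 and -3.81 in Sham and at -3.08 to -0.66 (median -1.83) in treated arrays and rose by 2.06 ± 0.45 (adjusted p = 0.00265). Fgb, a fibrinogen chain, rose by 3.66 ± 0.41 (adjusted p = 5.16e-06) and S100a6, a calcium-binding protein of regrowing epithelium, by 0.83 ± 0.10 (adjusted p = 1.77e-05). The median of the injury genes was 0.61 in DKD against Sham and 0.050 in treated against DKD. DKD arrays of row 2 were higher than those of row 1 by 1.67 in Havcr1, 1.42 in Lcn2 and 0.32 at the list median. With slide row in the fit 1 injury gene was called higher and none lower (limma; 9 higher and 2 lower at an unadjusted p under 0.05); Fgb was called (2.73, adjusted p = 0.0295) and Havcr1 (3.31, adjusted p = 0.0889), Lcn2 (adjusted p = 0.701) and S100a6 (adjusted p = 0.0607) were not.

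Growth arrest genes that p53 drives rose in 13 of 32 and fell in 3, against 5 higher and 0 lower with slide row (limma; 11 higher and 1 lower at an unadjusted p under 0.05). Cdkn1a, the cell cycle inhibitor p21, stood at -1.64, -2.04, -2.37, -2.46 and -2.69 in Sham and at 0.62 to 1.60 (median 1.12) in treated arrays. It rose by 3.31 ± 0.27 (adjusted p = 2.11e-07), 9.93-fold, and DKD against Sham was 3.33. Plk2, a kinase of the same response, rose by 2.20 ± 0.18 (adjusted p = 1.95e-07), Ccng1, cyclin G1, by 1.27 ± 0.13 (adjusted p = 1.86e-06) and Btg2, an antiproliferative factor, by 1.17 ± 0.13 (adjusted p = 4.80e-06). Plk2 was at 1.07 with normexp and quantile normalisation. Btg2 rose against DKD as well (0.68, adjusted p = 0.00380). Cdkn1a, Plk2, Ccng1 and Btg2 were all called with slide row in the fit, and the DKD rows differed at the list median by 0.0099. Immediate early genes rose in 10 of 25 with none lower (limma; 2 lower at an unadjusted p under 0.05), including the MAP kinase phosphatases Dusp5 (1.09 ± 0.16, adjusted p = 7.43e-05) and Dusp6 (1.08 ± 0.19, adjusted p = 3.91e-04), and 3 were called higher with slide row. The share of immediate early genes called was 40%, against 26.1% of all genes. Cell cycle genes rose in 8 of 44 and fell in 1, a share called of 20.5% against 26.1% of all genes. They were 0 higher and 1 lower with slide row (limma; 2 higher and 5 lower at an unadjusted p under 0.05). Those that rose include Ccne1, cyclin E1 (1.31 ± 0.25, adjusted p = 7.54e-04), and Mcm5, a subunit of the replicative helicase (0.75 ± 0.19, adjusted p = 0.00725). The list was 0.33 higher in the row 2 DKD arrays, and neither gene was called with slide row in the fit.

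Antioxidant and NRF2-linked genes rose in 22 of 52 and fell in 7. The metallothioneins Mt1, named Mt1a in the files, and Mt2A, which bind zinc and copper, had small and even rises. Mt1 stood at 5.83, 6.11, 5.81, 6.12 and 6.04 in Sham and at 6.73 to 6.92 (median 6.81) in treated arrays (0.84 ± 0.064, adjusted p = 9.75e-08), and Mt2A rose by 0.51 ± 0.062 (adjusted p = 1.13e-05). Gsta3, a glutathione S-transferase of a family with close sequences, rose by 1.74 ± 0.22 (adjusted p = 1.69e-05). In the fit with slide row 6 genes were called higher, Mt1 and Mt2A among them, and none lower (limma; 15 higher and 1 lower at an unadjusted p under 0.05), while Gsta3 was not called (adjusted p = 0.0564). Of 34 iron genes 10 rose and 6 fell, 47.1% called against 26.1% of all genes. Tf, transferrin (1.52 ± 0.23, adjusted p = 9.66e-05), and Steap4, a metalloreductase (1.28 ± 0.23, adjusted p = 5.09e-04), were higher and Slc39a8, a metal importer (-0.47 ± 0.088, adjusted p = 7.56e-04), lower. None of the iron genes was called with slide row (limma, with 5 higher and 4 lower at an unadjusted p under 0.05).

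Of 42 matrix genes 7 were higher and 4 lower, with a median of 0.044, and the share called, 26.2%, was near the 26.1% of all genes. Beside Lox, Timp1, which inhibits matrix proteases, rose by 1.01 ± 0.22 (adjusted p = 0.00233), and Smad7, a brake on TGF-beta, fell (-0.77 ± 0.12, adjusted p = 1.95e-04). Lox was the member of this list called with slide row in the fit, where Timp1 and Smad7 were not called. Heat shock and endoplasmic reticulum chaperones fell in 20 of 48 and rose in 4, against 5 and 2 with slide row. Dnaja4, a co-chaperone, fell (-1.28 ± 0.10, adjusted p = 1.95e-07), Hsph1, a heat shock protein of the cytosol (-0.84 ± 0.12, adjusted p = 8.39e-05) and Sdf2l1, a factor of the endoplasmic reticulum (-0.93 ± 0.15, adjusted p = 2.22e-04). Among genes of insulin and IGF signalling, 6 of 35 higher and 9 lower (2 and 4 with slide row), Igfbp1 rose while Igfbp4 (-2.05 ± 0.22, adjusted p = 2.82e-06) and Igfbp5 (-1.32 ± 0.094, adjusted p = 4.60e-08), which also bind IGF, and Grb10, an adaptor that restrains the insulin receptor (-0.74 ± 0.10, adjusted p = 4.05e-05), fell. Dnaja4, Sdf2l1, Igfbp4, Igfbp5 and Grb10 kept their calls with slide row in the fit, and Hsph1 did not (adjusted p = 0.0662). Per1 (1.35 ± 0.25, adjusted p = 6.44e-04) was 1 of 2 clock genes called, both higher, of 17, and 1 was called with slide row.

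Leukocyte, chemokine and complement genes rose in 14 of 60 and fell in 3, a share called of 28.3%, near the 26.1% of all genes. Cxcl10, a chemokine that draws T cells, stood at -2.67, -3.17, -1.95, -1.80 and -1.63 in Sham and at -1.31 to 1.08 (median -0.15) in treated arrays, without overlap (2.14 ± 0.37, adjusted p = 4.05e-04). Cxcl11, which uses the same receptor, rose by 1.64 ± 0.17 (adjusted p = 1.86e-06), and the complement gene C2 by 1.64 ± 0.27 (adjusted p = 2.22e-04). Cxcl10 and Cxcl11 were called with slide row in the fit (2.66 and 1.59), and no other member of the list was called in either direction there (limma; 3 higher and 9 lower at an unadjusted p under 0.05). Row 2 DKD arrays were 0.38 higher at the list median and 0.90 higher in C2.

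Of 42 interferon-induced genes 14 rose and 1 fell, at a median of 0.57 against Sham, -0.18 for DKD against Sham and 0.63 for treated against DKD. The share called against Sham was 35.7%, beside 26.1% of all genes. The mean log2 level of the list was -2.39, -2.57, -2.06, -1.94 and -2.29 in the 5 Sham arrays and ran from -2.34 to -1.07 over the 7 treated arrays. Treated arrays 2 and 4 lay within the Sham range, at -2.34 and -2.25, and the other 5 above it. Ifi27l2b, an interferon-induced mitochondrial protein, had Sham arrays at 0.57, 1.17, 1.49, 1.92 and 1.48 and treated arrays at 1.78 to 3.85 (median 3.30) (1.71 ± 0.39, adjusted p = 0.00347). Isg20, a ribonuclease against viral RNA, rose by 1.05 ± 0.18 (adjusted p = 2.97e-04) and Psmb8, a subunit of the immunoproteasome, by 0.79 ± 0.21 (adjusted p = 0.00985). Row 2 DKD arrays were 0.38 higher than row 1 arrays at the list median and 1.12 higher in Ifi27l2b. No member was called with slide row in the fit (limma; 0 higher and 1 lower at an unadjusted p under 0.05) and the median was 0.27.

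**Figure D5:**
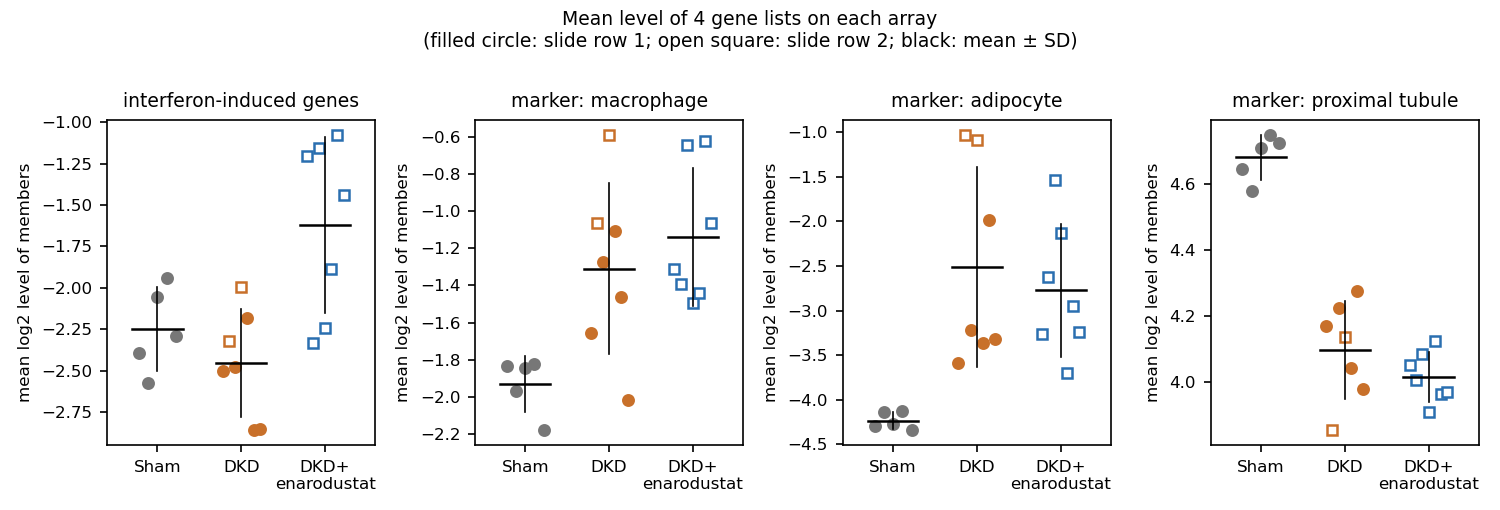
Points are arrays, with the mean log2 level of the members of 4 lists on the y axes and the 3 groups on the x axes; circles are slide row 1, open squares slide row 2, and the black lines the group mean ± SD. The 2 DKD arrays of row 2 hold the highest adipocyte levels of all arrays. The mean of the proximal tubule markers, Kap among them, lies lower in both diabetic groups than in Sham.

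Among the 12 largest rises with separate groups were genes of the liver and of lipoproteins. Apoa4, an apolipoprotein, rose by 4.22 ± 0.44 (adjusted p = 2.31e-06), of which 2.73 was present in DKD. Apoc3, another apolipoprotein and one of the hepatocyte-type genes, stood at 1.14, 1.44, 1.28, 1.49 and 1.70 in Sham, at 2.00 to 2.37 (median 2.15) in DKD and at 2.82 to 3.92 (median 3.16) in treated arrays. The 3 groups did not overlap in Apoc3, which rose by 1.90 ± 0.17 (adjusted p = 5.25e-07) against Sham and by 1.14 (adjusted p = 5.14e-04) against DKD. Both were called with slide row in the fit (4.04 and 1.92). The kininogens Kng1 (3.85 ± 0.64, adjusted p = 2.74e-04), Kng2 (3.91 ± 0.63, adjusted p = 1.83e-04) and Kng2l1 (3.85 ± 0.64, adjusted p = 2.61e-04), precursors of kinin peptides, rose by like amounts; they are near-identical copies whose probes may read one another, and the files give their probes other names of the family. The kininogens were 1.57 to 1.70 higher in row 2 than in row 1 DKD arrays and lost their calls with slide row. Il24, a cytokine, rose by 3.79 ± 0.75 (adjusted p = 0.00119), with 2 of 5 Sham and 6 of 7 treated arrays well above background. Il24 lost its call with slide row (1.98, adjusted p = 0.453) and was at 1.2 with normexp and quantile normalisation. Car3, a carbonic anhydrase of fat and muscle, stood at -5.81, -4.83, -5.88, -6.12 and -5.65 in Sham and at -3.95 to 2.72 (median -1.80) in treated arrays (4.57 ± 1.30, adjusted p = 0.0147), was 5.23 higher in row 2 than in row 1 DKD arrays, lost its call with normexp and quantile normalisation (adjusted p = 0.0643), and turned to -0.66 (adjusted p = 0.884) with slide row in the fit.

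Several of the largest falls ended near or below background. Wnt2b, a Wnt ligand with a probe at chr2:200218639-200218698 on rn4, stood at -3.02, -4.11, -3.22, -3.19 and -3.87 in Sham and at -9.05 to -7.51 (median -8.12) in treated arrays, where no array was well above background. Its mean was -3.48 ± 0.48 (SD, n = 5) in Sham and -8.12 ± 0.52 (SD, n = 7) in treated arrays. With dim arrays raised to the lowest signal called above background, it was at least 9.27-fold lower on the reported scale. The same held for Prss35, a serine protease (at least 5.26-fold; -4.30 ± 0.52 SD and -8.52 ± 0.63 SD), Spock1, a proteoglycan (at least 3.53-fold; -4.87 ± 0.35 SD and -7.28 ± 0.57 SD), and Cilp, a matrix protein (at least 2.15-fold; -5.50 ± 0.48 SD and -6.97 ± 0.70 SD). Each was well above background on 5 of 5 Sham arrays and 0 of 7 treated arrays, and their adjusted p-values were 8.46e-09, 1.56e-06, 3.84e-05 and 0.00182 in that order. Spock1 lost its call with slide row (-1.97, adjusted p = 0.0620). The differences of Wnt2b, Prss35, Spock1 and Cilp were -1.23, -0.89, -0.59 and -0.29 with normexp and quantile normalisation. These are smaller than the folds given, so each bound holds for the reported scale alone. In the reverse direction Cd163, a scavenger receptor of macrophages, was well above background on 0 of 5 Sham and 5 of 7 treated arrays (at least 2.71-fold higher; -9.08 ± 0.85 SD and -6.09 ± 1.00 SD; adjusted p = 0.00245), and Lep, the fat cell hormone leptin, on 0 of 5 and 3 of 7 (at least 2.05-fold higher; -8.81 ± 0.39 SD and -6.49 ± 1.03 SD; adjusted p = 0.00148). Neither was called with slide row in the fit (adjusted p = 0.836 and 0.0643). Rgn, the calcium-binding protein regucalcin, fell (-3.69 ± 0.24, adjusted p = 1.59e-08) and stayed above background on all arrays. Anxa13, an annexin of the brush border (-4.40 ± 0.83, adjusted p = 7.79e-04), and Zfp648, a zinc finger gene (-4.66 ± 0.60, adjusted p = 2.39e-05), were well above background on 2 and 3 of 7 treated arrays, and both lost the call with slide row. Acot5 (-3.94 ± 0.55, adjusted p = 5.47e-05), an acyl-CoA thioesterase, and Iqch (-3.64 ± 0.40, adjusted p = 3.99e-06) fell with 6 of 7 treated arrays above background, and Acot5 lost its call with slide row (adjusted p = 0.0690). The differences of Anxa13, Zfp648, Acot5 and Iqch were -1.65, -2.20, -2.36 and -2.15 with normexp and quantile normalisation. Prima1, an anchor of acetylcholinesterase, fell (-4.44 ± 0.32, adjusted p = 5.99e-08) on its brighter probe, against -0.83 on the other. With slide row in the fit, 5 of the 11 described among the 12 largest rises and 9 of the 12 largest falls were called.

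Some genes stood apart in treated rats from both Sham and DKD. By the smaller of their differences from the other 2 groups, the leading rises were Mgarp, Rgs11, Slc16a3 and Tmem35b. Rgs11, a regulator of G protein signalling, rose by 2.23 ± 0.23 (adjusted p = 2.15e-06) against Sham and by 1.85 (adjusted p = 7.55e-05) against DKD, and by 2.71 (adjusted p = 8.76e-04) with slide row in the fit. Rgs11 was at 0.60 with normexp and quantile normalisation. Tmem35b, named Zmym6nb in the files, rested on a wide spread: 1 Sham array stood at -3.69 and the next at -6.43, and leaving out any of 9 single arrays ended its call (adjusted p of up to 0.0978, without Sham array 3), as did the replicate block (adjusted p = 0.0942) and slide row (adjusted p = 0.715). The leading falls were Pebp4, a phosphatidylethanolamine-binding protein (-1.81 ± 0.30, adjusted p = 2.79e-04, 0 of 7 treated arrays above background, at least 1.82-fold lower, with means of -5.82 ± 0.35 SD and -7.63 ± 0.76 SD), Fgf18, a fibroblast growth factor (-1.30 ± 0.25, adjusted p = 9.29e-04, 1 of 7 above), Plppr4, named Lppr4 in the files (-0.75 ± 0.13, adjusted p = 4.67e-04), and Dnaaf1, a factor of ciliary dynein assembly (-0.81 ± 0.25, adjusted p = 0.0209, 4 of 7 above). Their differences from DKD were -1.20, -0.97, -0.91 and -0.95 in that order. Against Sham Pebp4 was at -0.26 with normexp and quantile normalisation, less than the fold given, which holds for the reported scale alone. The Dnaaf1 call ended without Sham array 2, 4 or 5 (adjusted p of up to 0.0574), and of the 4 falls Pebp4 alone was called with slide row (-1.98, adjusted p = 0.0482).

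Other genes had changed in DKD against Sham and the opposite way in treated rats against DKD, whatever their difference from Sham. Pde4dip, which anchors a phosphodiesterase, was at -3.16 ± 0.23 (SD, n = 5) over Sham arrays, -2.26 ± 0.22 (SD, n = 7) over DKD arrays and -3.15 ± 0.36 (SD, n = 7) over treated arrays, and treated minus Sham was 0.015 ± 0.16 (adjusted p = 0.967). Maob, monoamine oxidase B, was at -4.25 ± 0.19 (SD, n = 5), -3.59 ± 0.21 (SD, n = 7) and -4.32 ± 0.42 (SD, n = 7) in the same order. Adhfe1, a hydroxyacid-oxoacid transhydrogenase, and Steap2, a metalloreductase, were also highest in DKD, with treated minus Sham at 0.061 ± 0.10 and 0.023 ± 0.12. In the other direction, RT1-T24-3, a class I histocompatibility gene of a family with close copies, was at 1.25 ± 0.58 (SD, n = 5) over Sham arrays, 0.037 ± 0.41 (SD, n = 7) over DKD arrays and 2.15 ± 0.86 (SD, n = 7) over treated arrays. Oasl2, an interferon-induced gene, was at -1.77 ± 0.36 (SD, n = 5), -2.71 ± 0.42 (SD, n = 7) and -1.44 ± 0.70 (SD, n = 7). Arhgef39 and Slfn1 were also lowest in DKD, Slfn1 with 3 of 5 Sham, 0 of 7 DKD and 2 of 7 treated arrays above background. These genes were taken for lying apart in DKD, so their closeness to Sham is partly fixed by the choice, and an uncalled difference from Sham does not show equal levels: the unadjusted 95% interval of treated minus Sham ran from 0.13 to 1.66 for RT1-T24-3, which was called higher without treated array 2 or 4 (adjusted p = 0.0134 and 0.0397), and from -0.44 to 0.29 for Maob.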

How the data were processed

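Total RNA of renal cortex from 19 rats was read on 1-colour Agilent arrays. Per the file headers, the deposited intensity of each spot was background-subtracted and detrended by Feature Extraction 11.5.1.1, with probe positions on rn4. The authors' deposited value table has log2 values for 22739 probes, with medians of 8.13 to 8.21 per array; its method is not given in the sources used here, beyond limma in the submitters' processing notes.

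Control and outlier spots were left out, spots of a probe averaged, log2 intensity reduced by the 75th percentile of each array, and probes kept that were well above background on at least 5 of 19 arrays. A gene took its brightest probe. A single limma 3.58.1 model held all 3 groups (lmFit and eBayes, R 4.3.3, statmod 1.5.0, data.table at version 1.17.8), with Benjamini-Hochberg adjustment over 24217 genes. On simulated data with 200 changed genes, 44.8%, 67.2% and 90.9% of those changed by 0.5, 1 and 2 log2 units were recovered, and 6.25% of calls were false. The simulated noise was independent between arrays, without a slide or slide row difference, and far fewer genes changed than were called here. These shares therefore do not give the recovery or the false share of the reported calls. The number of arrays limits the precision.

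Same-numbered Sham and treated arrays lay on the same slide and deviated together (r = 0.179, 0.136, 0.472, 0.4 and 0.295), although an array of another number correlated more highly in 3 of the 5 cases, so the replicate number was tried as a block. Other alternatives changed the background correction, scaling, filter, probe choice, slide terms, weights and arrays used. Named genes were the 12 largest rises and falls with separate groups and a name beyond an identifier, up to 4 called members per list by adjusted p, a fixed set, and up to 4 genes per direction above background in 1 group alone, apart from both groups, or changed in DKD and back in treated rats; a few of them are not reported here. The members and lists were chosen with earlier results of these data known.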

Additional observations from a re-analysis of the deposited data

Results flagged for a closer look

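Within each group of 5 or 7 arrays the highest and lowest values were compared with the nearest other array by Dixon's test at the 95% level, for the named genes and the mean level of each list. Of 400 groups checked, 23 (5.75%) held a value far from the rest, and chance alone gives about 1 in 20. Values are log2 levels, with the nearest array of the same group in brackets.

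Sham array 2 stood apart in Cyp2c11 at 1.06 (nearest -0.18), in Esr1 at -1.82 (nearest -1.18) and in Gatm at 2.08 (nearest 2.90). Sham array 1 stood apart in Kcne1 at -2.49 (nearest -1.72), in Lpin2 at -3.25 (nearest -2.63) and in Tmem35b at -3.69 (nearest -6.43). Sham array 3 did so in Rgn at 3.04 (nearest 2.87) and in Txnip at 0.69 (nearest 1.16), and Sham array 5 in Cxcl11 at -2.34 (nearest -3.07).

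Treated array 4 stood apart in Igfbp5 at -2.40 (nearest -2.72), in Prss35 at -7.22 (nearest -8.37), in Tm7sf2 at -0.81 (nearest -0.33) and in Vnn1 at 1.61 (nearest 2.30). The same array was lowest of its group in the mean level of fatty acid oxidation genes at 0.94 (nearest 1.28) and of ketone body genes at -0.15 (nearest 0.14), and highest in that of erythroid markers at 1.74 (nearest 0.094). Treated array 1 stood apart in Tmem35b at -6.67 (nearest -4.76) and in the mean level of clock genes at -1.62 (nearest -1.44), and treated array 6 in Cycs at 3.22 (nearest 4.62) and in that of T cell and B cell markers at -3.71 (nearest -4.19). Arnt, the partner of HIF, stood at -3.56 (nearest -3.77) in treated array 2, Dusp5 at 0.64 (nearest 0.018) in treated array 3 and Sdf2l1 at -1.45 (nearest -0.89) in treated array 7.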

How the results depend on the processing

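Slide row, the filter and the slides taken singly moved the count of calls by over 1.5 times. With row in the fit 1031 genes were called, 501 higher and 530 lower, and with slide as a block as well, an alternative added after seeing the data, 1431, 729 and 702. Within slide 1 alone 14 genes passed, 5 higher and 9 lower, within slide 2 alone 46, 27 and 19, and within slide 3 alone 338, 164 and 174, against 5223, 4711 and 4561 at an unadjusted p under 0.05 (limma). Without a filter on dim probes 10744 were called, 6919 of them higher. The share of called genes that were higher was 38.5% as reported, 29.3% with normexp and quantile normalisation, 30% with quantile normalisation and 48.6% with slide row. The replicate block called 7138 genes. Leaving out 1 array gave 5175 to 6513 calls, 2045 to 2564 higher and 3130 to 3949 lower.

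Genes called higher with row in the fit numbered 9 in glycolysis, 12 among the other HIF targets and 7 in fatty acid oxidation (5 with slide and row); leaving out 1 array gave 14 to 16, 16 to 19 and 27 to 31. Members of oxidative phosphorylation called lower numbered 56 with normexp and quantile normalisation, 55 with quantile normalisation, 58 in the authors' value table, 12 in a fit of the 2 groups alone, 0 with row, 0 with slide and row (limma; 4 lower at an unadjusted p under 0.05 with row), and 12 to 22 without 1 array. Car3 reversed with row (-0.66) and with slide and row (-0.77), as did Fabp4 (-0.82 and -0.43). Over all 155 named genes and their settings, 4077 values stayed on their side of the threshold, 194 lost the call and 15 gained it. Another 4 changed sign in a gene called in the reported fit or in that setting. Changes of sign without a call in either, as in Arhgef39 (-0.46 to 0.53 over the settings), are among the 4077. The cause was not tested. Probes near background carry little information on size, and 213 called genes were above background in 1 group alone.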

Other observations

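Markers of cell types that the sections above did not describe were set out in the same way. Of 11 erythroid markers 1 rose and 0 fell, with a median difference of 0.72, and of 9 T cell and B cell markers 1 rose and 0 fell. Smooth muscle markers rose in 1 and fell in 1 of 9. Of the adrenal cortex markers 6 were tested, of which 1 rose and 1 fell, while Star, Cyp11b1, Cyp11b2, Mc2r and Nr5a1, which define that tissue, were not above background on enough arrays to be tested. With slide row in the fit no marker of these 4 lists was called (limma; 0 higher and 0 lower at an unadjusted p under 0.05 among erythroid, 2 higher and 0 lower at an unadjusted p under 0.05 among T cell and B cell, 0 higher and 1 lower at an unadjusted p under 0.05 among smooth muscle and 0 higher and 0 lower at an unadjusted p under 0.05 among adrenal cortex markers). The defining liver genes Apoa1, Ttr and Cps1 were likewise not tested, beside 6 called hepatocyte-type genes. Ms4a1, the B cell antigen CD20, was well above background on no array.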
